A study of Mus musculus with 6 samples.

Results

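A set of 9 complement genes was followed in mouse spinal cord after contusion: the C1q chains C1qa, C1qb and C1qc, the central components C3 and C4b, the receptors C3ar1, C5ar1 and Cd93, and the inhibitor Serping1. They were taken by symbol, and each matched 1 of the 43432 gene identifiers in the count tables. The SCI group was 3 wildtype C57BL/6 mice given a unilateral contusion at cervical level 5 with an Infinite Horizon device set to 50 kdyn, with cord tissue taken 4 h later. The sham group was 3 wildtype C57BL/6 mice with laminectomy only, in which bone was removed over the cord at that level and no blow was given. The labels give neither the age and sex of the mice nor a collection time for sham. The series asks how cord RNA differs in the acute phase of injury.

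Complement is a cascade of plasma proteins that tags debris, microbes and synapses for removal and calls in leukocytes. C1q binds a target and activates the proteases C1r and C1s, which cleave C4 and C2 so that C3 is cleaved in turn. Small fragments released on the way, C3a and C5a, are called anaphylatoxins and signal through the receptors encoded by C3ar1 and C5ar1 on myeloid cells. In the central nervous system microglia are the main source of C1q, while hepatocytes make most of the C3, C4 and C1 inhibitor found in blood.

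Of the 9 genes, the receptor genes C3ar1 and Cd93 passed the test, both higher in SCI. Levels are given in CPM, counts relative to library size with TMM scaling. C3ar1, the receptor for C3a, rose to 12.7 ± 1.89 CPM in SCI against 3.10 ± 0.534 CPM in sham (SD, n = 3 mice each), 4.18-fold. Cd93, a C-type lectin of endothelial and myeloid cells first described as a C1q receptor, rose to 33.3 ± 0.988 CPM in SCI against 16.8 ± 2.62 CPM in sham, 1.99-fold. C5ar1, the receptor for C5a, had 42 counts over the SCI libraries and 8 over the sham libraries, and was too sparse for the filter on low counts. C1qa, C1qb, C1qc, C3, C4b and Serping1 did not pass the test. In 3 of the 8 genes that passed that filter (C3ar1, Cd93 and C1qb) every SCI library was above every sham library. This was so for 7.73% of all tested genes, and 13.7% of tested genes had groups apart in either direction. The groups were also apart for C5ar1, which is outside these shares since it was not tested.

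Promoter sequences are shown for the anaphylatoxin receptors, one called and one sparse, and for C3, the ligand precursor that was not called. RefSeq promoters on GRCm38.p6 were held for 5 of the 9 genes. Each sequence is the 250 bases before the RefSeq start site, on the minus strand and written 5′ to 3′. RefSeq and GENCODE starts differ, so that 202 bases of the C5ar1 sequence and 4 of the C3ar1 sequence lie inside the gene as GENCODE places it, and none of the C3 sequence does. Capitals mark matches, on either strand, to AP-1 (TGANTCA), C/EBP (TTGCNNAA) or PU.1 (GAGGAAG) motifs, which were picked with these sequences in view. The sequences lie at chr6:122856158-122856407, chr7:16259339-16259588 and chr17:57228137-57228386.
C3ar1: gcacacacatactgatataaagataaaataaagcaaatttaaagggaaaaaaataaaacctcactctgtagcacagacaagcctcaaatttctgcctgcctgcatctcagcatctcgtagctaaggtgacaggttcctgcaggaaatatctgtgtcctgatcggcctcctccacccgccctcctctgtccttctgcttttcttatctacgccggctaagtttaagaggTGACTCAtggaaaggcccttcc
C5ar1: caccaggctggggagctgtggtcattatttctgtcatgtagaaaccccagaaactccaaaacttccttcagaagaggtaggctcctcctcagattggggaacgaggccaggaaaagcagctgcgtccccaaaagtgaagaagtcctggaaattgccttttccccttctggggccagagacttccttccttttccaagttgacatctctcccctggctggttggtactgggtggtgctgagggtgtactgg
C3: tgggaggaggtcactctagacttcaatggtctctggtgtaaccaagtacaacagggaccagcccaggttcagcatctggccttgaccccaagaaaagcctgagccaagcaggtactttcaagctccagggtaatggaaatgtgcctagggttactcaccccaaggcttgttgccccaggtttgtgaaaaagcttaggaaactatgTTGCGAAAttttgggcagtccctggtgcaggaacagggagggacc
The C3ar1 sequence held 1 AP-1 match, 22 to 16 bases before the start. The C3 sequence held 1 C/EBP match, 45 to 38 bases before the start, and the C5ar1 sequence held no match to these letters. The promoters of C1qb and C1qc were also searched and are not shown. That of C1qc held 1 PU.1 match, 194 to 188 bases before the start, and that of C1qb held none. Of 32851 promoters cut to the same length, 6.75% held the AP-1 letters, 9.56% the C/EBP letters and 10.6% the PU.1 letters. A match describes the letters and is no evidence of binding.

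The 6 libraries held 5364263 to 8229961 counts in SCI and 3407176 to 11543633 counts in sham. These libraries are made from transcript 3′ ends, so a count does not grow with transcript length. Levels of different genes can be set side by side only roughly, since the handling of reads with several matches was not stated. Markers of cord tissue were present, such as Mbp of oligodendrocytes at 3061 ± 1089 CPM in SCI and 2858 ± 473 CPM in sham. Transcripts of hepatocytes were present too. A list of 24 hepatocyte markers summed to 66060 to 74618 CPM in SCI and 51741 to 118590 CPM in sham, between 5.17% and 11.9% of scaled counts. The highest and the lowest sums were both sham libraries, sham 2 and sham 3. In bulk tissue, a change in the number of cells of a type and a change in RNA per cell cannot be told apart.

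C3ar1 lies on chromosome 6, 122847138 to 122856161 (GRCm38, minus strand, ENSMUSG00000040552). It had 88, 99 and 67 counts in SCI libraries 1 to 3, or 10.6, 14.3 and 13.3 CPM, and 25, 26 and 13 counts in sham libraries 1 to 3, or 3.28, 2.503 and 3.52 CPM. Every SCI library was higher than every sham library. Its log2 fold change was 2.06 ± 0.29 (SE, 95% interval 1.45 to 2.68, edgeR quasi-likelihood test, adjusted p = 0.00123). C3ar1 and Cd93 were the called genes among the 8 members that passed the filter on low counts, both higher, where 0.885% of all 13560 tested genes were called higher, 0.0442% lower and 0.929% in all. The call on C3ar1 held without each single library, with log2 fold changes of 1.90 to 2.18.

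C3ar1 is carried by microglia, monocytes and other myeloid cells. A list of 16 microglia markers summed to 320 to 388 CPM in SCI and 363 to 402 CPM in sham. Set against those markers, C3ar1 had 3.33, 4.12 and 3.425 counts per 100 marker counts in SCI, and 0.817, 0.664 and 0.970 in sham. The ratio in the lowest SCI library was above that in the highest sham library. The share of all tested genes with such a ratio apart was not counted. P2ry12, a purinergic receptor of resting microglia, was the called member of that list, at 2.02 ± 0.876 CPM in SCI and 7.74 ± 1.09 CPM in sham. Neutrophil markers summed to 56.2 to 75.4 CPM in SCI and 15.7 to 49.8 CPM in sham, and these sums did not overlap. By edgeR 0 of 6 tested members were called, and their median log2 fold change was 1.08. S100a8, S100a9, Mmp8 and Retnlg had every SCI library above every sham library, as did 7.73% of all tested genes. Ngp and Camp had groups that overlapped, with log2 fold changes of 0.96 and -0.40. Markers of border macrophages and monocytes summed to 102 to 121 CPM in SCI and 80.5 to 143 CPM in sham, with 1 of 7 tested members called, the platelet and macrophage chemokine Pf4 (higher). Erythroid markers summed to 1584 to 4282 CPM in SCI and 611 to 841 CPM in sham, with 5 of 5 tested members called higher. The part of these cells in the C3ar1 and Cd93 results was not tested.

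C5ar1 lies on chromosome 7, 16246743 to 16259540 (ENSMUSG00000049130). It had 23, 8 and 11 counts in SCI libraries 1 to 3, or 2.78, 1.16 and 2.18 CPM, and 2, 5 and 1 counts in sham libraries 1 to 3, or 0.263, 0.481 and 0.271 CPM. The groups did not overlap, although 2 of the sham values lay under the limit that a count of 3 sets in those libraries. Over the group totals the ratio of SCI to sham was 5.63, with a 95% exact counting interval of 2.61 to 13.9 that covers counting error only. With no filter on low counts its log2 fold change was 2.45 ± 0.75 (SE, 95% interval 0.98 to 3.92), which missed the threshold (edgeR adjusted p = 0.0872), while 0.846% of the 21524 genes in that fit were called higher. It was called once the hepatocyte sum entered that fit as a covariate (2.80 ± 0.83, edgeR adjusted p = 0.0457), and over all other settings the adjusted p lay between 0.0772 and 0.670.

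The second C5a receptor gene, C5ar2, lies 2588 bases from C5ar1 and had 20 counts over the SCI libraries and 10 over the sham libraries. Sham 1 alone held 8 of those 10. The ratio was 2.14, with a 95% counting interval of 0.957 to 5.13 that includes no difference. It was 6.95 without sham 1 (1.69 to 61.4) and 1.241 without sham 2 (0.540 to 3.095), so the C5ar2 value rested on single sham libraries. Within libraries the log2 ratio of C5ar1 to C3ar1 (0.5 added to each count) averaged -2.67 ± 0.82 in SCI and -2.93 ± 0.58 in sham (SD, n = 3 mice each). That difference of 0.26 was within the spread of the mice (exact two-sided permutation test, p = 0.8, adjusted p = 0.8 over 3 such tests, in a design that cannot go below 0.1). It turned to -0.12 without SCI 1. By the shape of their levels over the 6 libraries, the genes nearest to C5ar1 were Hbb-bs, Kdm6b and Hbb-bt, with root-mean-square differences of 0.25, 0.28 and 0.30 in log2 CPM among 10431 genes. A prior count of 2 entered these log2 CPM, which shrinks the differences of a gene as sparse as C5ar1. Hbb-bs, a beta globin of red cells, stood at 1782, 971 and 2024 CPM in SCI and 562, 592 and 416 CPM in sham. Among the SCI libraries, C5ar1 was lowest in SCI 2, where it had 8 counts. Hbb-bs, Kdm6b and Hbb-bt were lowest there too, which follows from picking them by likeness to C5ar1 and adds nothing to it. The sum of neutrophil markers was highest in SCI 2, at 75.4 CPM. Sparse neutrophil genes such as Mmp8 (2.67 CPM in SCI, 0.93 CPM in sham) lay under the mean of 5 CPM required of a nearest gene. The part of blood cells in the C5ar1 result was not tested.

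Cd93 lies on chromosome 2, 148436640 to 148443563 (ENSMUSG00000027435). Its levels were 33.6, 32.2 and 34.1 CPM in SCI libraries 1 to 3 and 14.0, 17.2 and 19.3 CPM in sham libraries 1 to 3. The SCI libraries lay close together and above all sham libraries. Its log2 fold change was 0.99 ± 0.20 (SE, 95% interval 0.58 to 1.41, edgeR adjusted p = 0.0193). The call was lost without SCI 1 (adjusted p = 0.117), SCI 2 (0.0865), SCI 3 (0.0758) or sham 1 (0.227), while the log2 fold change stayed between 0.86 and 1.08. Over all settings its adjusted p lay between 0.00154 and 0.227. A list of 12 endothelial markers summed to 332 to 378 CPM in SCI and 290 to 372 CPM in sham, with 0 members called by edgeR and a median log2 fold change of 0.07. Among them Ly6c1, a surface protein of endothelium and of monocytes, stood at 36.2 ± 8.73 CPM in SCI and 19.2 ± 6.61 CPM in sham (SD, n = 3 mice each, edgeR adjusted p = 0.190). Pecam1, an endothelial junction protein, stood at 16.2 ± 4.49 CPM in SCI and 10.4 ± 1.702 CPM in sham (adjusted p = 0.546). For Ly6c1, Pecam1 and Esam every SCI library was above every sham library, and for Cldn5 every SCI library was below. Of all tested genes, 7.73% had groups apart with SCI above, and 13.7% in either direction. The groups overlapped for the other endothelial markers, of which Kdr, Tek, Egfl7 and Slco1a4 had negative log2 fold changes. The part of endothelium in the Cd93 result was not tested.

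**Figure D1:**
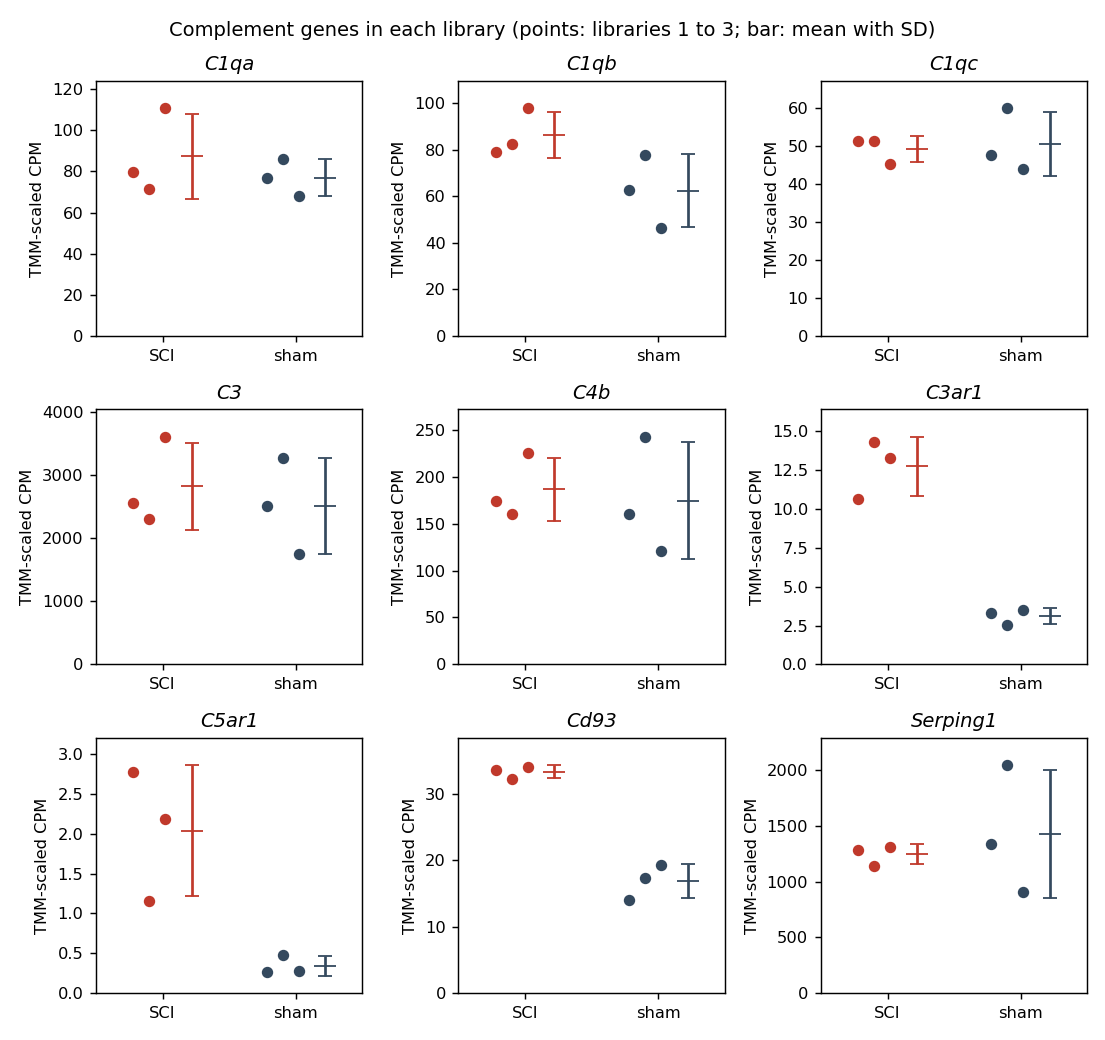
Levels of the 9 genes in each library, in TMM-scaled CPM on linear axes that start at 0, with SCI at the left and sham at the right of each panel. Points are libraries 1 to 3 of a group and the bar beside them is the mean with its SD, and the groups are apart for C3ar1, C5ar1, Cd93 and C1qb and overlap for the other genes.

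The C1q genes lie side by side within 18675 bases of chromosome 4, all on the minus strand: C1qb at 136880129 to 136886187, C1qc at 136889804 to 136893065 and C1qa at 136895917 to 136898803. Each encodes 1 of the chains that build the C1q molecule. C1qa stood at 79.5, 71.6 and 110.6 CPM in SCI libraries 1 to 3 and 76.7, 85.9 and 68.1 CPM in sham libraries 1 to 3. C1qc stood at 51.3, 51.4 and 45.4 CPM in SCI and 47.8, 60.0 and 43.9 CPM in sham. For both chains the groups overlapped. C1qb stood at 79.2, 82.6 and 97.7 CPM in SCI and 62.8, 77.7 and 46.4 CPM in sham, so that the lowest SCI library was just above the highest sham library. The gap between them was smaller than the spread within either group.

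None of the C1q chains was called. The log2 fold changes were 0.18 ± 0.20 for C1qa (SE, 95% interval -0.25 to 0.60), 0.46 ± 0.20 for C1qb (0.03 to 0.89) and -0.04 ± 0.18 for C1qc (-0.42 to 0.34). The edgeR adjusted p was 0.926, 0.618 and 0.984 in that order. The unadjusted p of C1qb was 0.0372, and 7.38% of tested genes had one under 0.05. C1qb was called once the hepatocyte sum entered the fit (0.57 ± 0.13, edgeR adjusted p = 0.0247), and its adjusted p lay between 0.149 and 0.975 in every other setting. The signs of the other chains were not firm, since C1qa was at -0.04 without SCI 3 and C1qc at 0.01 without SCI 3, 0.10 without sham 2 and 0.02 with the covariate.

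C1q is made by microglia in the cord and also by Kupffer cells, the resident macrophages of liver. The chains together had 0.657, 0.592 and 0.654 counts per count of the microglia markers in SCI, and 0.466, 0.593 and 0.436 in sham. The log2 of this ratio averaged -0.66 ± 0.09 in SCI and -1.02 ± 0.23 in sham (SD, n = 3 mice each), and SCI 2 lay below sham 2. The difference of 0.36 did not pass an exact two-sided permutation test (p = 0.2, where 0.1 is the smallest possible, adjusted p = 0.6 over 3 tests). With Csf1r, the receptor for colony-stimulating factor of all macrophages, as the sole denominator the difference was 0.15 (exact p = 0.4). Kupffer cell markers (Clec4f, Vsig4, Cd5l, Marco and Timd4), a list chosen after levels were seen, summed to 167, 172 and 245 CPM in SCI and 194, 258 and 118 CPM in sham. Within SCI, C1qa and C1qb were highest in SCI 3 as the Kupffer sum was, while C1qc was lowest there. Within sham, the chains and the Kupffer sum were all highest in sham 2 and lowest in sham 3. The part of liver macrophages in the C1q levels was not tested.

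C3, the component on which all complement routes converge, was the most abundant of the 9 genes. It lies on chromosome 17, 57203970 to 57228136 (ENSMUSG00000024164), and Mir6978 lies inside it on the same strand. C3 stood at 2554, 2308 and 3606 CPM in SCI libraries 1 to 3 and 2510, 3276 and 1745 CPM in sham libraries 1 to 3. The groups overlapped, and sham 3 and SCI 3 were the lowest and highest of the 6 libraries. Its log2 fold change was 0.17 ± 0.29 (SE, 95% interval -0.46 to 0.79, edgeR adjusted p = 0.967), and it turned to -0.06 without SCI 3 and -0.04 without sham 3.

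C4b, a component of the classical and lectin routes, lies on chromosome 17, 34728380 to 34743882 (ENSMUSG00000073418). It stood at 174, 160 and 225 CPM in SCI and 160, 242 and 121 CPM in sham. Its log2 fold change was 0.09 ± 0.24 (SE, 95% interval -0.43 to 0.61, edgeR adjusted p = 0.978), and it turned to -0.07 without SCI 3 and -0.11 without sham 3. Of the stretches of 50 bases in the last 500 bases of its longest transcript, 38.1% also occur in its near-copy C4a, so reads could be split between them. C4a had 0.555 to 1.80 counts per 100 C4b counts in SCI and 0.493 to 0.993 in sham.

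Serping1 encodes the C1 inhibitor, which blocks C1r and C1s, and lies on chromosome 2, 84765387 to 84775444 (ENSMUSG00000023224). Its levels were 1280, 1142 and 1309 CPM in SCI libraries 1 to 3 and 1337, 2044 and 908 CPM in sham libraries 1 to 3. All SCI values lay between the lowest and highest sham values. Its log2 fold change was -0.20 ± 0.29 (SE, 95% interval -0.81 to 0.41, edgeR adjusted p = 0.944), and it turned to 0.14 without sham 2.

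C3, C4b and Serping1 are genes that liver RNA also carries, and their levels were set against the hepatocyte markers. Serping1 had 1.78, 1.73 and 1.755 counts per 100 hepatocyte marker counts in SCI, and 1.81, 1.72 and 1.755 in sham. These ratios overlapped, while the level of Serping1 itself spanned 908 to 2044 CPM. Albumin (Alb) made up 37.3% to 48.1% of the sum in SCI and 47.8% to 53.6% in sham. Without Alb in the sum, Serping1 had 3.40, 3.33 and 2.80 counts per 100 marker counts in SCI and 3.46, 3.71 and 3.48 in sham, and every SCI ratio was then below every sham ratio. C3 had 3.55, 3.49 and 4.83 counts per 100 marker counts in SCI and 3.40, 2.76 and 3.37 in sham. C4b had 0.2425, 0.2426 and 0.301 in SCI and 0.216, 0.204 and 0.234 in sham. For both genes every SCI ratio was above every sham ratio, as was the case for 5.97% of all tested genes. Without Alb the C3 ratios remained apart, at 6.73 to 7.71 in SCI and 5.95 to 6.69 in sham. Those of C4b then overlapped, at 0.463 to 0.480 in SCI and 0.414 to 0.465 in sham. Against Apoa1, a single hepatocyte gene chosen after values were seen, C3 had 0.940 to 1.01 counts per count in SCI and 0.933 to 0.987 in sham. C4b had 6.28 to 6.70 counts per 100 Apoa1 counts in SCI and 6.14 to 6.90 in sham, and the groups overlapped for both genes. Serping1 had 36.6 to 49.3 counts per 100 Apoa1 counts in SCI and 51.35 to 58.2 in sham, which did not overlap. The order of the groups in these ratios thus depended on the denominator. The 5.97% share of all tested genes holds for the full sum and for ratios higher in SCI. No such share was counted for lower ratios or for the other denominators.

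With the hepatocyte sum in the model, the log2 fold changes of C3, C4b and Serping1 were 0.30 ± 0.14, 0.25 ± 0.13 and -0.01 ± 0.12 (SE), with an edgeR adjusted p of 0.419, 0.456 and 0.988. None was called there or in any other setting. The hepatocyte sum did not differ between groups by more than its spread, with a difference in log2 CPM of -0.12 (exact two-sided permutation test, p = 0.8, adjusted p = 0.8 over 3 tests). By the shape of their levels over the 6 libraries, the genes nearest to C3 were Cyp2d26, Apoc1 and Gstm6, with root-mean-square differences of 0.02 in log2 CPM for each of them. Those nearest to C4b were Slc39a4, Mgmt and Met (0.03, 0.03 and 0.04), and those nearest to C1qa were Slc16a1, Romo1 and Prkcsh (0.03, 0.04 and 0.05). Between members, C3 and C4b were the closest pair, at 0.08.

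**Figure D2:**
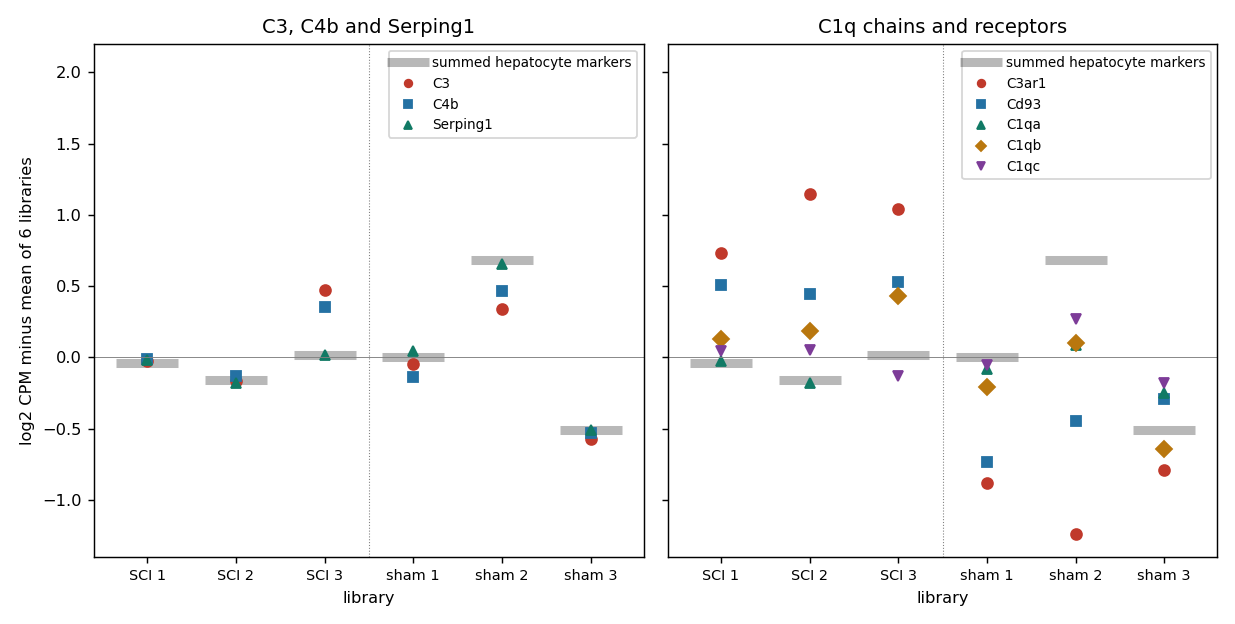
Log2 CPM of each gene minus its mean over the 6 libraries (vertical axis), by library (horizontal axis, SCI at the left of the dotted line), with the summed hepatocyte markers as grey bars. A prior count of 2 was used for the genes and none for the sum. The hepatocyte markers are highest in sham 2, as are C4b and Serping1, whereas C3 is highest in SCI 3, and C3, C4b, Serping1 and the C1q chains are lowest in sham 3, while C3ar1 and Cd93 are above their mean in each SCI library and below it in each sham library.

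The rest of the pathway was read from a list of 43 other complement genes, of which 32 passed the filter on low counts. By edgeR, 0 were higher and 0 lower, 0 had an unadjusted p under 0.05, and 0 were called by DESeq2 or limma voom. Of all tested genes, 0.929% were called by edgeR, so 0 calls among 32 genes is close to that share. An unadjusted p under 0.05 was found in 7.38% of all tested genes. The median log2 fold change of the list was -0.07, against -0.00 for all tested genes. No tested gene of the list had groups that did not overlap, against 13.7% of all tested genes in either direction. Among initiators and proteases, C1ra, the protease activated by C1q, stood at 112 ± 15.2 CPM in SCI and 123 ± 48.2 CPM in sham. Mbl2, a mannose-binding lectin made by liver, stood at 226 ± 12.03 CPM in SCI and 260 ± 89.7 CPM in sham. C1s1, the partner protease of C1r, had the lowest edgeR adjusted p of the list, 0.723, at 70.7 ± 9.51 CPM in SCI and 100.3 ± 48.8 CPM in sham. Within sham, C1ra, Mbl2 and C1s1 were all highest in sham 2 and lowest in sham 3, as the hepatocyte sum was. Within SCI, C1ra was highest in SCI 3 as that sum was, while Mbl2 and C1s1 were highest in SCI 1. The part of hepatocyte RNA in the levels of this list was not tested.

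In the alternative route, properdin (Cfp), which stabilizes its convertase, had 16.6 ± 1.296 CPM in SCI and 14.8 ± 6.56 CPM in sham. Factor B (Cfb) had 0.753 ± 0.290 CPM in SCI and 0.899 ± 0.690 CPM in sham and was not tested. Among regulators, Clu, the secreted chaperone clusterin that astrocytes also make, stood at 1259 ± 183 CPM in SCI and 1158 ± 222 CPM in sham. Vtn, vitronectin, stood at 626 ± 124 CPM in SCI and 581 ± 184 CPM in sham. Among receptors, Cr1l, a membrane regulator that binds C3 fragments, had 58.8 ± 10.1 CPM in SCI and 60.9 ± 13.7 CPM in sham. Vsig4, a C3b receptor of tissue macrophages including Kupffer cells, had 46.3 ± 13.8 CPM in SCI and 48.4 ± 21.3 CPM in sham (SD, n = 3 mice each for all of these).

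**Figure D3:**
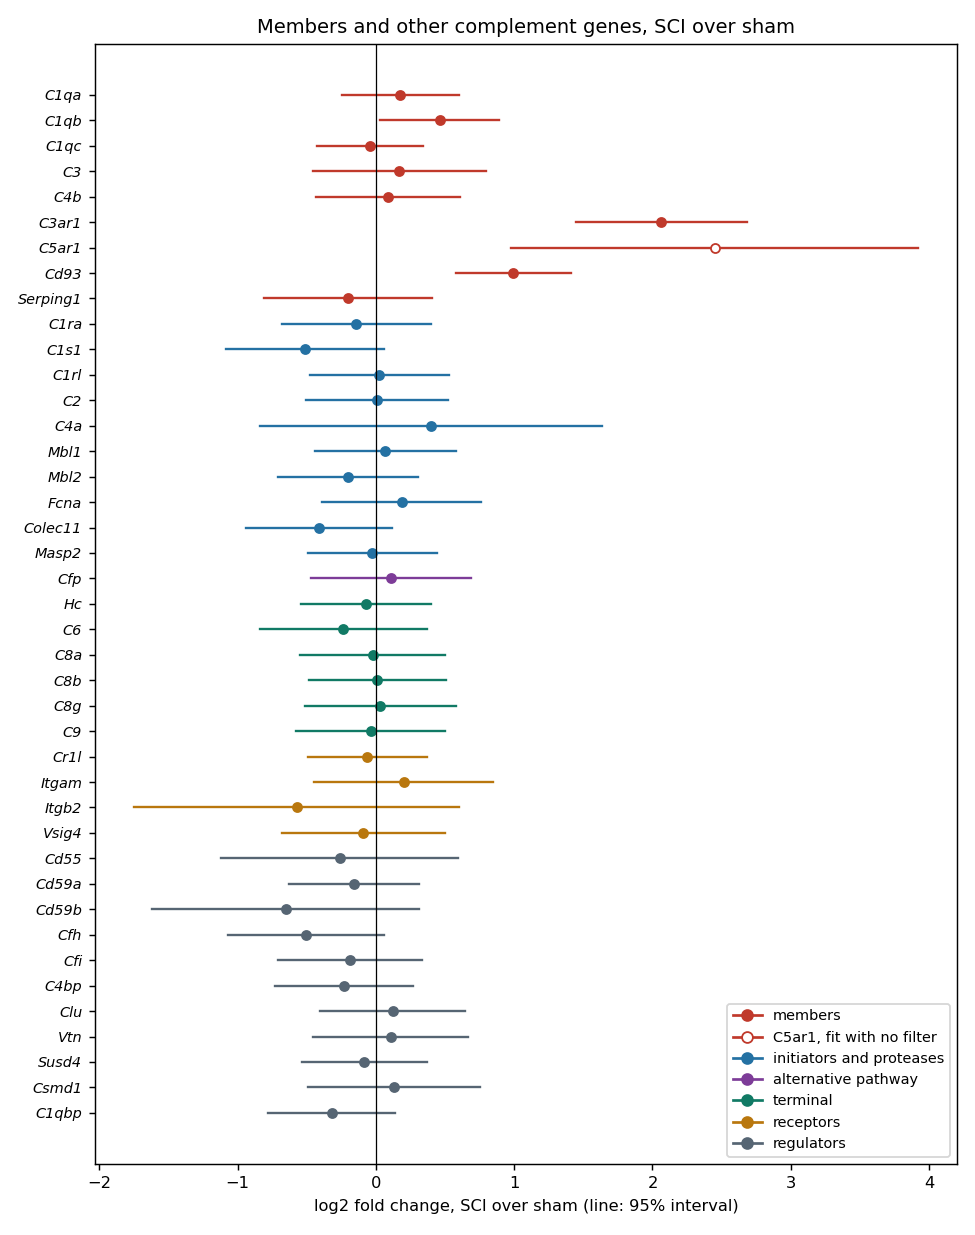
Log2 fold change of SCI over sham (horizontal axis) with its 95% interval for the 9 genes and the 32 other complement genes that passed the filter, 1 per row and coloured by role. The intervals of C3ar1 (1.45 to 2.68), Cd93 and C5ar1 (open circle, fit with no filter) lie wholly above 0, that of C1qb starts at 0.03, and those of the other genes include 0.

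**Figure D4:**
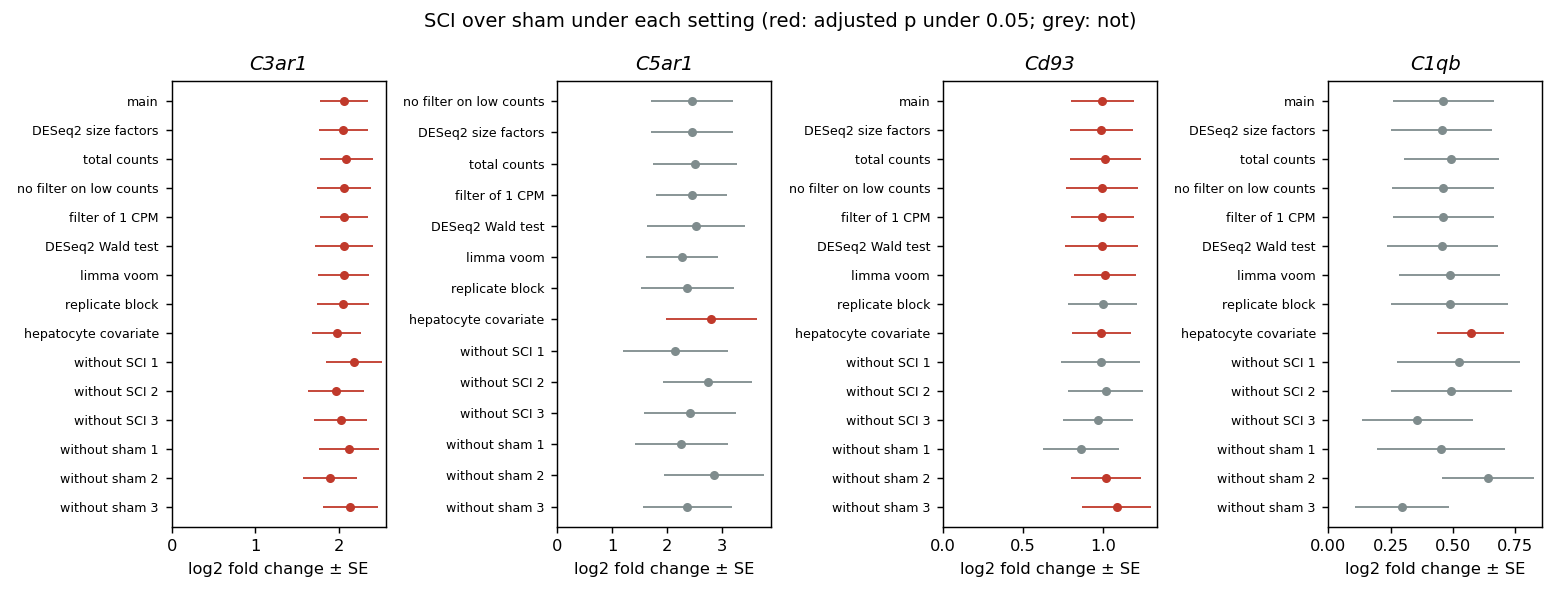
Log2 fold change of SCI over sham with its SE (horizontal axis) for C3ar1, C5ar1, Cd93 and C1qb under each setting, 1 per row, in red where the adjusted p was under 0.05. All C5ar1 rows but the filter of 1 CPM use no filter on low counts, C3ar1 is red in every row, Cd93 in some, and C5ar1 and C1qb with the hepatocyte covariate alone.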

How the data were processed

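The authors deposited 1 table of raw read counts per library, with Ensembl identifiers and no normalization. Per the labels' protocols, the Lexogen QuantSeq Forward kit was used, and per the submitters' processing notes reads were aligned with STAR 2.7.2b to mm10 (GRCm38), with DESeq2 1.24.0 among the tools. The counting tool, its strand setting and its handling of reads with several matches were not stated in those notes. Positions came from GENCODE M21 on the same build.

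SCI was compared with sham over all genes with edgeR 4.0.16 (quasi-likelihood F test, robust, R 4.3.3) after filterByExpr, which left 13560 genes, and TMM scaling. A gene was called where its p, adjusted by Benjamini-Hochberg across the whole fit, was under 0.05, and these p-values measure the spread between 3 mice a group. SE is the log2 fold change over the square root of F. The 9 genes, all marker lists and tests were chosen with earlier results of these data known. All 9 genes are named, and of the other complement genes the 2 most abundant of each role and any called one, while C1s1, C4a, C5ar2 and the single marker genes were chosen after their values were seen. C6, C7, C9 and Hc of the terminal role were also named outside that rule, with their values known. Nearest genes were the 3 with the smallest root-mean-square difference in centred log2 CPM (prior count of 2), among genes with a mean of at least 5 CPM. The alternatives were DESeq2 1.42.0, limma 3.58.1 voom, other scalings and filters, the replicate number as a block, the log2 hepatocyte sum as a covariate, and leaving out each library. Ratios without Alb or to Apoa1 and the C5a receptor ratios without single libraries were added after seeing the data. All pairs of replicate libraries differed beyond sampling noise (chi-square per degree of freedom 6.97 to 38.0), so none was treated as a duplicate.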

Additional observations from a re-analysis of the deposited data

How the results depend on the processing

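C3ar1 kept its direction and its call in all 14 alternatives. The labels number the mice 1 to 3 in both groups and do not say whether the numbers pair them. Same-numbered libraries did not deviate together (correlations of -0.09, -0.07 and -0.17 across genes), and pairs of unlike number gave -0.06 to 0.12. With 3 libraries a group, each centred on the group mean, these correlations could not exclude a weak pairing. With the replicate block 82 genes were called in all, 1 of them lower, and 1 of the 9 genes, C3ar1, while Cd93 stayed at 1.00 and lost its call (adjusted p = 0.113). Over all genes, 126 were called (120 higher, 6 lower). No filter on low counts gave 224 (182 higher, 42 lower) and the hepatocyte covariate 223 (200 higher, 23 lower), and the DESeq2 Wald test gave 11 lower. With the covariate C1qb (0.57) and, with no filter as well, C5ar1 (2.80) gained a call, so that 4 of the 9 genes were called, and C1qc turned to 0.0242. The C5ar1 settings without a filter were added after seeing the data. The difference in hepatocyte sum turned to 0.0408 without Alb. Leaving out 1 library gave 63 to 146 called genes, 62 to 132 higher, 1 to 14 lower and 1 to 2 of the 9 genes. The log2 fold changes then ranged from -0.0366 to 0.30 for C1qa, -0.13 to 0.10 for C1qc, -0.0551 to 0.40 for C3, -0.11 to 0.39 for C4b, 0.86 to 1.08 for Cd93 and -0.44 to 0.14 for Serping1. The log2 ratio of C5ar1 to C3ar1 ranged from -0.12 to 0.70 and the hepatocyte difference from -0.40 to 0.19. The causes were not tested. A count of 3 corresponds to 0.289 to 0.813 CPM in these libraries, which limits what can be said of C5ar1.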

Other observations

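The share of each chain in the summed C1q counts was set side by side. C1qb held 37.7%, 40.2% and 38.5% of C1q counts in SCI libraries 1 to 3 and 33.5%, 34.8% and 29.3% in sham libraries 1 to 3. C1qc held 24.4%, 25.0% and 17.9% in SCI and 25.5%, 26.8% and 27.7% in sham. The shares of C1qb did not overlap between the groups. Those of C1qc were apart by the gap of 25.0% in SCI 2 to 25.5% in sham 1, with SCI 3 the lowest, and those of C1qa overlapped, at 34.8% to 43.6% in SCI and 38.4% to 43.0% in sham. These shares were looked at after the levels were seen and were not tested.

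Genes of the terminal pathway, whose proteins form the membrane attack complex, spanned a wide range of levels. C8g stood at 329 ± 66.1 CPM in SCI and 321 ± 105 CPM in sham, and C8a at 193 ± 37.2 CPM in SCI and 196 ± 67.2 CPM in sham (SD, n = 3 mice each). C9 stood at 79.5 ± 4.23 CPM in SCI and 80.9 ± 36.7 CPM in sham, Hc, which encodes C5, at 30.1 ± 1.43 CPM in SCI and 31.2 ± 9.83 CPM in sham, and C6 at 10.5 ± 1.09 CPM in SCI and 11.9 ± 4.755 CPM in sham. Liver makes most of these proteins, and the part of the hepatocyte RNA in their levels was not tested. Of that list, C7 had no count in any library, which allows up to 0.363 to 0.595 CPM in SCI and 0.289 to 0.813 CPM in sham by counting error alone.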
